A study of Rattus norvegicus with 12 samples.

Results

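The genes described here take glucose into the heart muscle cell, burn it by glycolysis, exchange lactate, pass pyruvate into the mitochondrion, and store or release glycogen. The list of 40 genes was drawn up by pathway, with earlier results of these data known. A gene was followed through the array's probe sets, groups of short probes for 1 transcript, that carry its symbol alone. Such a probe set was present for 38 of the 40. Dlat and Pkm were not analysed here, and Gapdh was present only in the manufacturer's control probe sets, which were left out of the tests. The remaining 37 stood among 14213 genes with such a probe set that is not a control. Of these 37, Pfkfb1 and Pygl lay below the level set for testing, so 35 members were tested.

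The study loaded the rat heart with extra blood volume through an aorto-caval shunt, a surgical opening between the aorta and the vena cava. Male Sprague-Dawley rats were compared 28 days after the shunt or after a sham operation, and the left atrial appendage and the left ventricular free wall were taken. The 4 groups were left atrium after shunt, left atrium after sham, left ventricle after shunt and left ventricle after sham. Each group had 3 arrays, and each array held the RNA of a pool of 2 tissues. The labels name no engineered allele and no drug for any group, and an age was not found in them.

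Glucose enters muscle through the transporters encoded by Slc2a1 and Slc2a4, and the product of Slc2a4 moves to the cell surface under insulin. Hexokinase traps it as glucose 6-phosphate, phosphofructokinase commits it to glycolysis, and the pathway ends in pyruvate, which is either reduced to lactate or oxidised through the pyruvate dehydrogenase complex. The working heart draws most of its energy from fatty acids, also takes up lactate, and keeps glycogen as a reserve.

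Values are the deposited log2 expression values, on which a difference of 1 is a doubling. A log2 value belongs to its own probe set, and no probe set's level is set against another's. A gene was represented by its probe set of highest mean over the 12 arrays. Differences were tested with limma, a linear model fitted across all tested probe sets, and a gene passed at a Benjamini-Hochberg adjusted p under 0.05. Each error is the standard error (SE) of that model, with 3 arrays per group.

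The chamber labels fitted the markers. The mean of 4 atrial myocyte genes (Nppa, Myl4, Myl7 and Sln) was 13.55 to 13.67 on atrial arrays and 6.38 to 7.72 on ventricular arrays. The mean of 6 general cardiomyocyte genes was 12.80 to 12.90 on atrial arrays and 12.98 to 13.02 on ventricular arrays, while 6 fibroblast genes averaged 10.68 to 11.02 on atrial arrays and 10.11 to 10.43 on ventricular arrays. The 3 measured mesothelial genes of 4 averaged 6.36 to 6.91 on atrial arrays and 4.66 to 5.18 on ventricular arrays, and in sham rats Msln and Lrrn4 were higher and Wt1 lower in the atrium. The 2 measured nerve and Schwann genes of 4 averaged 4.25 to 5.16 on atrial arrays and 3.76 to 4.18 on ventricular arrays. In sham rats 2 of 3 tested smooth muscle genes, and Fabp4, the only adipocyte gene tested, were lower in the atrium. In bulk tissue, fewer cells of a type and less RNA per cell cannot be told apart, and the part of these differences in the chamber results below was not tested. Atrial shunt array 3 deviated most from its group mean, by a root mean square of 0.200. Every shunt array deviated more than any sham array. The range was 0.130 to 0.200 after shunt and 0.0913 to 0.110 after sham in the atrium. In the ventricle it was 0.122 to 0.163 and 0.102 to 0.114. The 3′ hexokinase control exceeded the 5′ one by 0.799, 0.937 and 1.44 on atrial shunt arrays 1 to 3. On atrial sham arrays the excess was 1.01 to 1.10. On ventricular shunt arrays 1 to 3 it was 1.23, 0.824 and 1.18, against 0.842 to 1.02 after sham. A larger excess is a sign of less intact RNA.

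The chambers differed widely in this pathway. In sham rats 27 of 35 tested members passed between left atrium and left ventricle, 6 higher and 21 lower in the atrium, or 77.1% of those tested. Over all 10605 genes tested in the same way, 50.2% passed, 27.6% higher and 22.6% lower. Which direction was the more frequent over all probe sets depended on the normalization and the filter, as given at the end. In shunt rats 26 of 35 members passed, 6 higher and 20 lower, against 45.6% of all genes, 24.8% higher and 20.9% lower. The same shares of all genes are the background for the counts by step below. Without the 3 shunt arrays of highest hexokinase 3′ minus 5′ difference, a setting added after seeing the data, 17 members passed in shunt rats, but that fit has 1 ventricular shunt array, which is assumed to vary like the other groups. The median difference of the members was -0.24 in sham rats, where it was 0.02 over all genes, and -0.20 in shunt rats, where it was 0.01. There were 24 members that passed in both, 19 lower and 5 higher in the atrium. The comparisons in sham and shunt rats use different arrays, but both rest on a common estimate of spread over all 12. Hk1, Pfkl and Pygm in sham rats, and Hk2 and Pgk1 in shunt rats, did not pass but did in at least 1 other setting. Calls that ended in at least 1 other setting were those of Aldoa, Pfkfb3, Gyg1, Gys1, Phka1 and Phkb in both comparisons, of Pgk1 and Gbe1 in sham rats, and of Gpi, Aldoc, Eno1, Ldha, Pdha1 and Pygm in shunt rats.

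**Figure D1:**
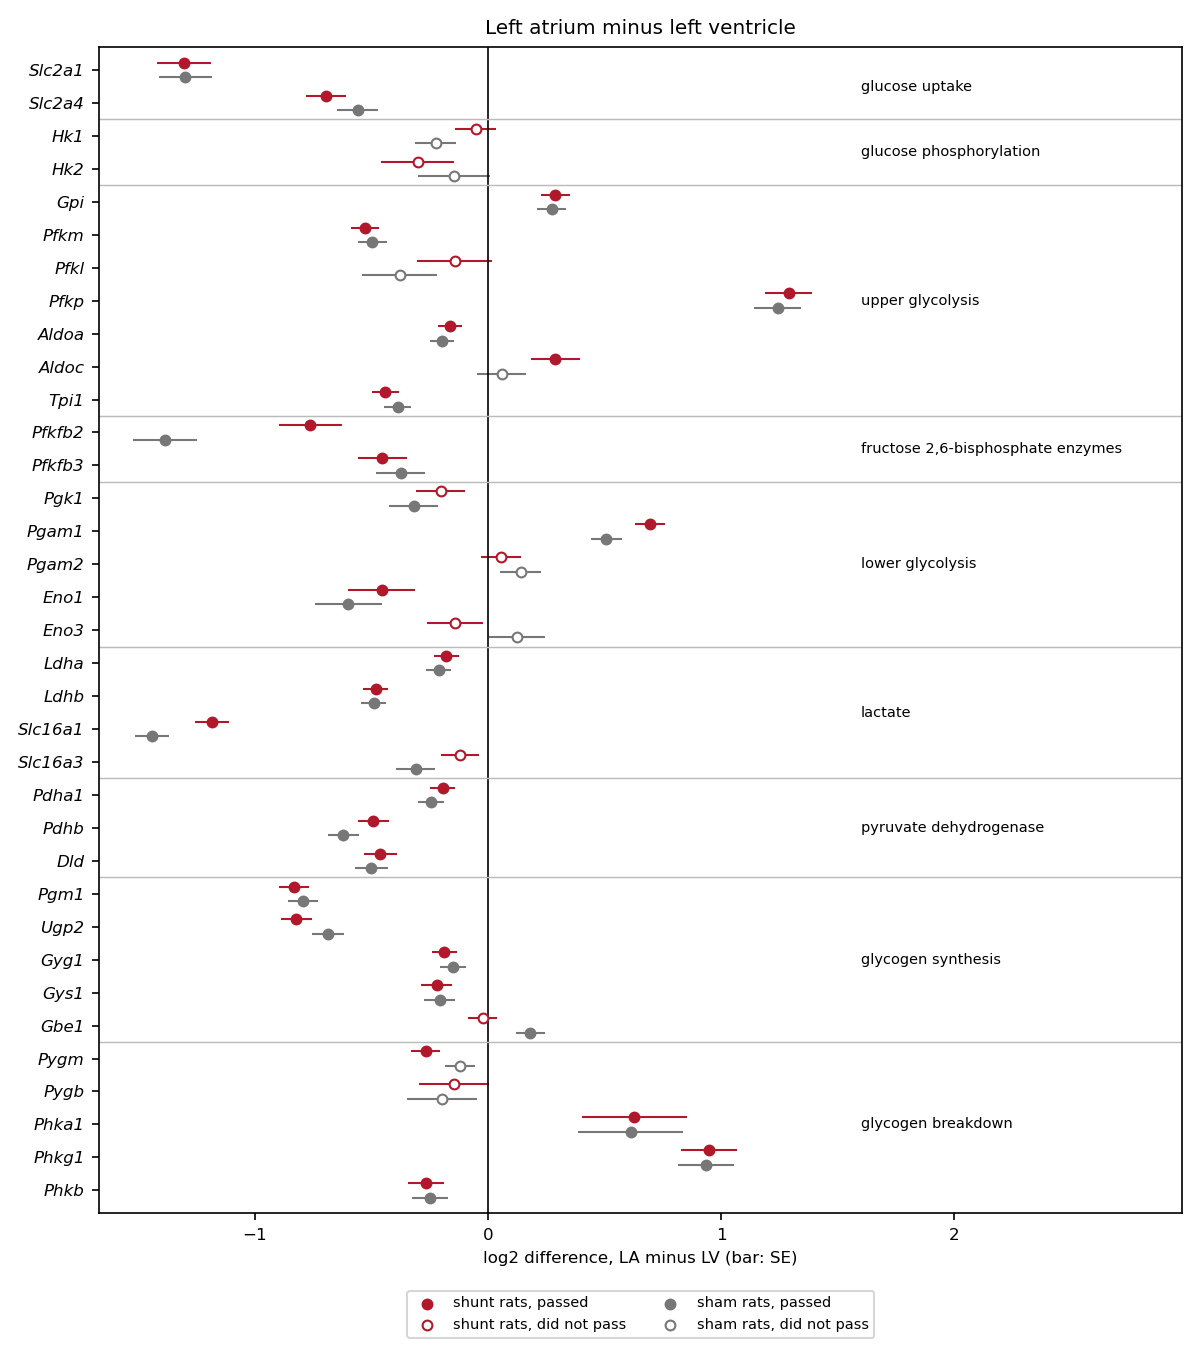
Left atrium minus left ventricle for each tested member, as the log2 difference with its standard error, in shunt and in sham rats (n = 3 arrays per group). Most members lie left of 0, Slc16a1, Pfkfb2 and Slc2a1 farthest in sham rats at -1.44, -1.39 and -1.30, and Pfkp lies farthest right at 1.24.

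Both glucose transporters were lower in the atrium. Slc2a1, which encodes the basal glucose transporter, read 5.07, 5.22 and 5.14 on the atrial sham arrays, against 6.62, 6.31 and 6.40 on the ventricular sham arrays. No atrial array came near a ventricular one, and the difference was -1.30 ± 0.12 (limma adjusted p = 3.13e-06), a 2.46-fold lower level. In shunt rats it read 5.47, 5.24 and 5.03 in the atrium and 6.64, 6.42 and 6.60 in the ventricle, a difference of -1.30 ± 0.12. Slc2a4, which encodes the insulin-responsive transporter, read 9.72, 9.52 and 9.61 on atrial sham arrays and 10.19, 10.25 and 10.09 on ventricular sham arrays, again without overlap (-0.56 ± 0.09, limma adjusted p = 0.000251). Its second probe set differed less, by -0.11 ± 0.09 in sham rats (limma adjusted p = 0.331, not passed) and by -0.29 ± 0.09 in shunt rats (adjusted p = 0.0227), so the size of the Slc2a4 difference depends on the probe set.

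The hexokinases, which phosphorylate the incoming glucose, did not pass in either comparison. Hk1, the general form, differed between atrium and ventricle by -0.22 ± 0.09 in sham rats (limma adjusted p = 0.055), and Hk2, the insulin-responsive muscle form, by -0.14 ± 0.15 (adjusted p = 0.467). In sham rats Hk1 did pass in 2 of 12 fits without 1 array and in 8 of 11 other settings. A p above the threshold does not show that the chambers were alike in either gene.

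The phosphofructokinase subunits differed in opposite directions. Pfkp, the platelet form of the subunit, read 7.97, 7.97 and 8.04 on atrial sham arrays, against 6.72, 6.89 and 6.64 on ventricular sham arrays. It was the member that stood highest in the atrium, by 1.24 ± 0.10 in sham rats (limma adjusted p = 1.45e-06, 2.37-fold) and 1.29 ± 0.10 in shunt rats. Pfkm, the muscle form, read 10.39, 10.28 and 10.33 on atrial sham arrays and 10.89, 10.81 and 10.79 on ventricular sham arrays. It was lower in the atrium by -0.50 ± 0.06 in sham rats (limma adjusted p = 4.21e-05) and -0.53 ± 0.06 in shunt rats, and a second Pfkm probe set gave -0.51 ± 0.10 and -0.53 ± 0.10. Pfkl, the liver form, differed by -0.38 ± 0.16 in sham rats and did not pass (limma adjusted p = 0.0708).

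Of the other 4 genes of upper glycolysis, 1 was higher and 2 were lower in the atrium of sham rats. Over all genes 27.6% were higher and 22.6% lower there. Gpi, which turns glucose 6-phosphate into fructose 6-phosphate, was higher in the atrium by 0.27 ± 0.06 in sham and 0.29 ± 0.06 in shunt rats. Tpi1, which interconverts the triose phosphates, was lower by -0.39 ± 0.06 and -0.44 ± 0.06. Aldoa, the muscle aldolase that splits fructose bisphosphate, was lower by -0.20 ± 0.05 and -0.16 ± 0.05, and Aldoc, the brain form, passed in shunt rats alone, higher by 0.29 ± 0.10 (limma adjusted p = 0.0417), against 0.06 ± 0.10 in sham rats. The change in the Aldoc chamber difference with the operation was 0.23 ± 0.15 and did not pass (limma adjusted p = 0.869).

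The bifunctional enzymes that make and break down fructose 2,6-bisphosphate, the activator of phosphofructokinase, were lower in the atrium where they could be tested. Pfkfb2, the heart form, read 4.02, 3.92 and 3.87 on atrial sham arrays and 5.44, 5.27 and 5.26 on ventricular sham arrays. The groups were far apart, at -1.39 ± 0.14 (limma adjusted p = 7.58e-06). The atrial values lay close to 4.01, the level set for testing. In shunt rats the difference was -0.76 ± 0.14. Pfkfb3, the inducible form, was lower by -0.37 ± 0.11 in sham and -0.45 ± 0.11 in shunt rats, with like values in its other probe sets (-0.40 and -0.42 in sham rats). Pfkfb1, the liver form, ranged from 3.38 to 4.19 over all arrays and was not tested.

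In lower glycolysis 1 tested gene was higher and 2 were lower in the atrium of sham rats, out of 5. These counts stand beside 27.6% higher and 22.6% lower over all genes. Pgam1, the general phosphoglycerate mutase, was higher in the atrium by 0.51 ± 0.06 in sham and 0.69 ± 0.06 in shunt rats, while its muscle counterpart Pgam2 differed by 0.14 ± 0.09 in sham rats without passing. Eno1, the general enolase, was lower by -0.60 ± 0.14 and -0.46 ± 0.14, and the muscle enolase Eno3 did not pass in either comparison. Pgk1, which makes ATP from bisphosphoglycerate, was lower by -0.32 ± 0.10 in sham rats (limma adjusted p = 0.0261) and -0.20 ± 0.10 in shunt rats (adjusted p = 0.144), although its second probe set passed in both at -0.42 ± 0.06 and -0.38 ± 0.06. The 3′ Gapdh control probe set, untested, ranged from 12.84 to 12.90 on atrial arrays and from 12.89 to 12.96 on ventricular arrays.

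All 4 genes of lactate handling were lower in the atrium of sham rats, where 22.6% of all genes were lower and 27.6% higher. Slc16a1, which encodes the monocarboxylate transporter that carries lactate and pyruvate across the membrane, read 9.05, 8.95 and 8.92 on atrial sham arrays and 10.37, 10.46 and 10.43 on ventricular sham arrays. This was the largest chamber difference among the tested members, at -1.44 ± 0.07 (limma adjusted p = 3.38e-08, 2.72-fold lower). In shunt rats the readings were 9.26, 9.30 and 9.07 in the atrium and 10.34, 10.45 and 10.40 in the ventricle, a difference of -1.18 ± 0.07. Ldhb, the heart subunit of lactate dehydrogenase, was lower by -0.49 ± 0.05 in sham and -0.48 ± 0.05 in shunt rats, and Ldha, the muscle subunit, by -0.21 ± 0.05 and -0.18 ± 0.05. Slc16a3, an exporter of lactate, passed in sham rats at -0.31 ± 0.08 and not in shunt rats at -0.12 ± 0.08 (limma adjusted p = 0.271), with readings between 4.31 and 4.84, near the level set for testing.

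The 3 tested genes of the pyruvate dehydrogenase complex were lower in the atrium too. Pdhb, a subunit of its first enzyme, differed by -0.62 ± 0.07 in sham and -0.49 ± 0.07 in shunt rats. Pdha1, the partner subunit, differed by -0.24 ± 0.05 and -0.19 ± 0.05, and Dld, the dehydrogenase that closes the cycle of the complex, by -0.50 ± 0.07 and -0.46 ± 0.07. Of 9 tested regulators and carriers around this step, listed as other pathway genes, all 9 passed in sham rats, 8 lower in the atrium and 1 higher. Over all genes tested, 50.2% passed in sham rats, 22.6% lower and 27.6% higher. Pdk1, a kinase that switches the complex off, differed by -1.37 ± 0.07, and Pdk3, another such kinase, was the exception at 1.51 ± 0.14. Mpc1 and Mpc2, the subunits of the mitochondrial pyruvate carrier, were lower by -0.79 ± 0.05 and -0.65 ± 0.07.

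Glycogen genes differed in both directions. Pgm1, which moves phosphate between the positions of glucose phosphate at the gateway to glycogen, read 8.91, 8.90 and 8.76 on atrial sham arrays and 9.68, 9.61 and 9.66 on ventricular sham arrays. Ugp2, which makes the activated UDP-glucose, was lower in the atrium by -0.69 ± 0.07 in sham and -0.82 ± 0.07 in shunt rats, beside -0.79 ± 0.06 and -0.83 ± 0.06 for Pgm1. Gys1, the muscle glycogen synthase, was lower by -0.21 ± 0.07 and -0.22 ± 0.07, and Gyg1, the glycogenin primer, by -0.15 ± 0.05 and -0.19 ± 0.05. Gbe1, the branching enzyme, was higher in the atrium in sham rats by 0.18 ± 0.06 (limma adjusted p = 0.0313) and stood at -0.02 ± 0.06 in shunt rats.

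Among the breakdown genes, subunits of phosphorylase kinase differed in opposite directions. Phkg1, its muscle catalytic subunit, read 6.65, 6.62 and 6.79 on atrial sham arrays and 5.86, 5.69 and 5.71 on ventricular sham arrays, higher in the atrium by 0.93 ± 0.12 (limma adjusted p = 6.59e-05, 1.91-fold). Phka1, a muscle regulatory subunit, was higher by 0.61 ± 0.23 (adjusted p = 0.0425), with 6.06, 6.21 and 6.47 on atrial sham arrays and 5.34, 5.66 and 5.91 on ventricular sham arrays, but its second probe set gave 0.19 ± 0.13 and did not pass. Phkb, another regulatory subunit, was lower by -0.25 ± 0.08. Pygm, the muscle glycogen phosphorylase, differed by -0.12 ± 0.06 in sham rats (limma adjusted p = 0.14) and passed in shunt rats at -0.27 ± 0.06 (adjusted p = 0.00506). Pygb, the brain phosphorylase, did not pass in either, and Pygl, the liver form, read 3.47 to 4.19 and was not tested.

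Of 43 other genes of glucose metabolism that were tested, outside the member list, 12 were higher and 14 lower in the atrium of sham rats, where 27.6% of all genes were higher and 22.6% lower. In shunt rats 9 were higher and 12 lower, where 24.8% of all genes were higher and 20.9% lower. In either direction 26 of the 43 passed in sham rats and 21 in shunt rats, where 50.2% and 45.6% of all genes did. Gpd1, which links glycolysis to glycerol phosphate, read 6.29, 5.99 and 6.18 on atrial sham arrays and 8.64, 8.71 and 8.45 on ventricular sham arrays (-2.44 ± 0.14). Prkag2, a regulatory subunit of the energy sensor AMPK, read 8.85, 8.85 and 8.84 on atrial sham arrays and 6.78, 6.98 and 7.06 on ventricular sham arrays (1.91 ± 0.08). Both stood far outside the spread between arrays. Of 9 tested regulators of glycogen, 6 were higher and 2 lower in the atrium of sham rats, but 3 were higher and 0 lower in shunt rats. Ppp1r3d, a subunit that brings protein phosphatase to glycogen, differed by 0.74 ± 0.10 in sham rats and 0.60 ± 0.10 in shunt rats.

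**Figure D2:**
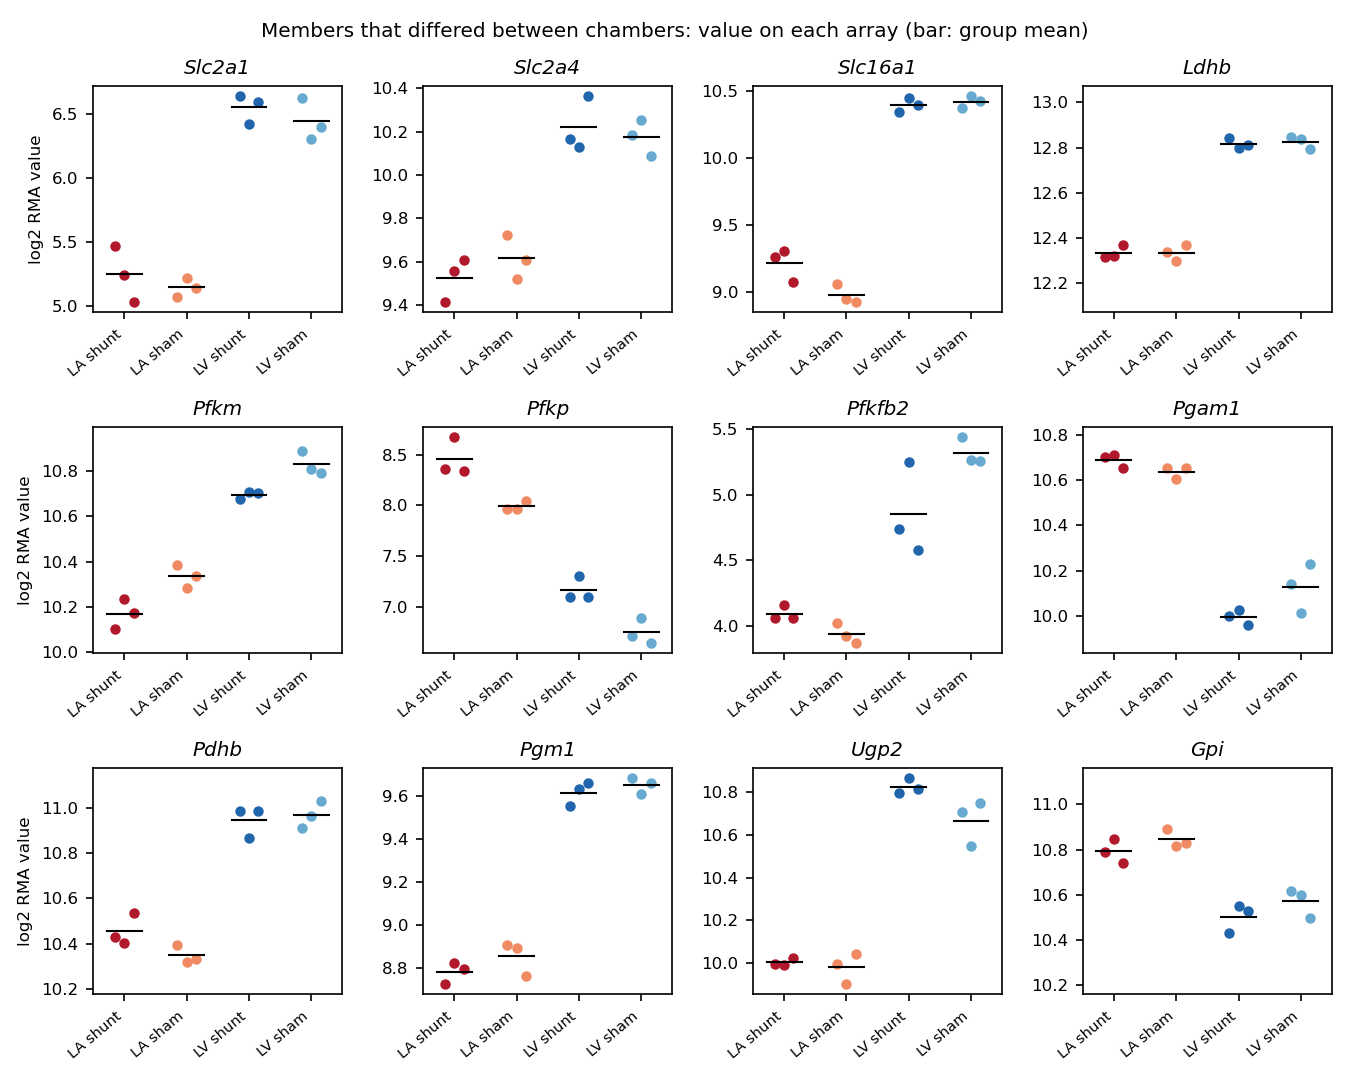
Log2 values on each of the 12 arrays for 12 members that differed between the chambers, with group means as bars and groups in the order left atrium (LA) shunt, LA sham, left ventricle (LV) shunt and LV sham. Pfkp, Pgam1 and Gpi lie higher on every atrial array than on any ventricular one, and Slc16a1, Slc2a1 and Pfkfb2 lower.

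The start regions of the 2 members lowest in the atrium of sham rats, Slc16a1 and Pfkfb2, and of the 2 highest, Pfkp and Phkg1, are shown because these genes mark the ends of the chamber difference. They were chosen after the values were seen. Each run is the 250 bases before the gene's start in RefSeq on assembly GRCr8, 5′ to 3′ on the gene's strand, and capitals mark matches on either strand. The letters searched were ACGTG and also GCGTG, the cores of the hypoxia response element, as well as CACGTG, the E-box bound by Myc and Usf proteins. The E-box holds ACGTG on both strands, so these matches overlap.
Slc16a1 (chr2:194812410-194812659, plus strand): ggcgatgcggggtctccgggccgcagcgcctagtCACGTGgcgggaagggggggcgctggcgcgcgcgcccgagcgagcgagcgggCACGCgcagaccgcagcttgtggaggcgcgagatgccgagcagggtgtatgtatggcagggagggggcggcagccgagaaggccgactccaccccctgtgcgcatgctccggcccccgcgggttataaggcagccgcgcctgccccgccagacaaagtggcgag
Pfkfb2 (chr13:44726972-44727221, minus strand): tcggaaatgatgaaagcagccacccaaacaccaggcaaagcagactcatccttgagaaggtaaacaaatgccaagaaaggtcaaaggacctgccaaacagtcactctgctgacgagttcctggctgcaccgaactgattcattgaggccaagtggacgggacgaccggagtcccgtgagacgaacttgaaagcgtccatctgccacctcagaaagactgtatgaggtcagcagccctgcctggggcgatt
Pfkp (chr17:68639563-68639812, plus strand): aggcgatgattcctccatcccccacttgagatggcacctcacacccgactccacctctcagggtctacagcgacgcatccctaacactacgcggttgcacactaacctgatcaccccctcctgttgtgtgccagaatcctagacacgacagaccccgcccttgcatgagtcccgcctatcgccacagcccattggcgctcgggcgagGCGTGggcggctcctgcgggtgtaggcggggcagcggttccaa
Phkg1 (chr12:32474827-32475076, plus strand): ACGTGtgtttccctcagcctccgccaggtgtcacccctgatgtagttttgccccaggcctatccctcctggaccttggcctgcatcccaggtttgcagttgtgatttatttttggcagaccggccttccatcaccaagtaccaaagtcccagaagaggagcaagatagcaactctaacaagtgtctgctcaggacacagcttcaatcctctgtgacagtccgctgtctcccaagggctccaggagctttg

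Counting back from the start, Slc16a1 held 1 CACGTG at -216 to -211 and 1 GCGTG on the other strand at -164 to -160. Pfkp held 1 GCGTG at -43 to -39, and Phkg1 held 1 ACGTG at -250 to -246. In Pfkfb2 these letters are not in this window. Over all 38 members with a window, 68.4% held ACGTG or GCGTG, against 37.9% of 27457 windows of the same length and 41.9% of the 19005 windows of protein-coding genes. By motif, all windows held ACGTG in 16.9%, GCGTG in 27.2% and CACGTG in 5.79%. The median GC content was 58% in the members, 52% in all windows and 54.8% in protein-coding genes, which bears on motifs rich in C and G, and its part in the difference was not tested. A match describes letters and not a bound site.

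Between shunt and sham, few members passed. In the left atrium 1 of 35 passed, Pfkp, which was higher, against 1.4% of all genes, 0.585% higher and 0.811% lower. In the left ventricle 0 of 35 passed with limma, against 0.113% of all genes, 0.0566% higher and 0.0566% lower. There 8 members had an unadjusted p under 0.05, a level at which the share of all genes was not taken. The mean shunt effect, which averages the differences in the 2 chambers, gave 3 passing members, 1 higher and 2 lower, or 8.57% against 5.06% of all genes, 2.38% higher and 2.69% lower. These are small counts near the background. The difference between the 2 shunt effects was passed by 0 of 35 with limma, as by 0% of all genes. Its unadjusted p was under 0.05 in 3 members (Pfkfb2, Slc16a1 and Gbe1), again without a share of all genes. The mean effect and the difference use all 12 arrays and are not independent of the 2 chamber tests. Member medians were small, -0.02 in the atrium, -0.04 in the ventricle and -0.02 for the mean effect.

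**Figure D3:**
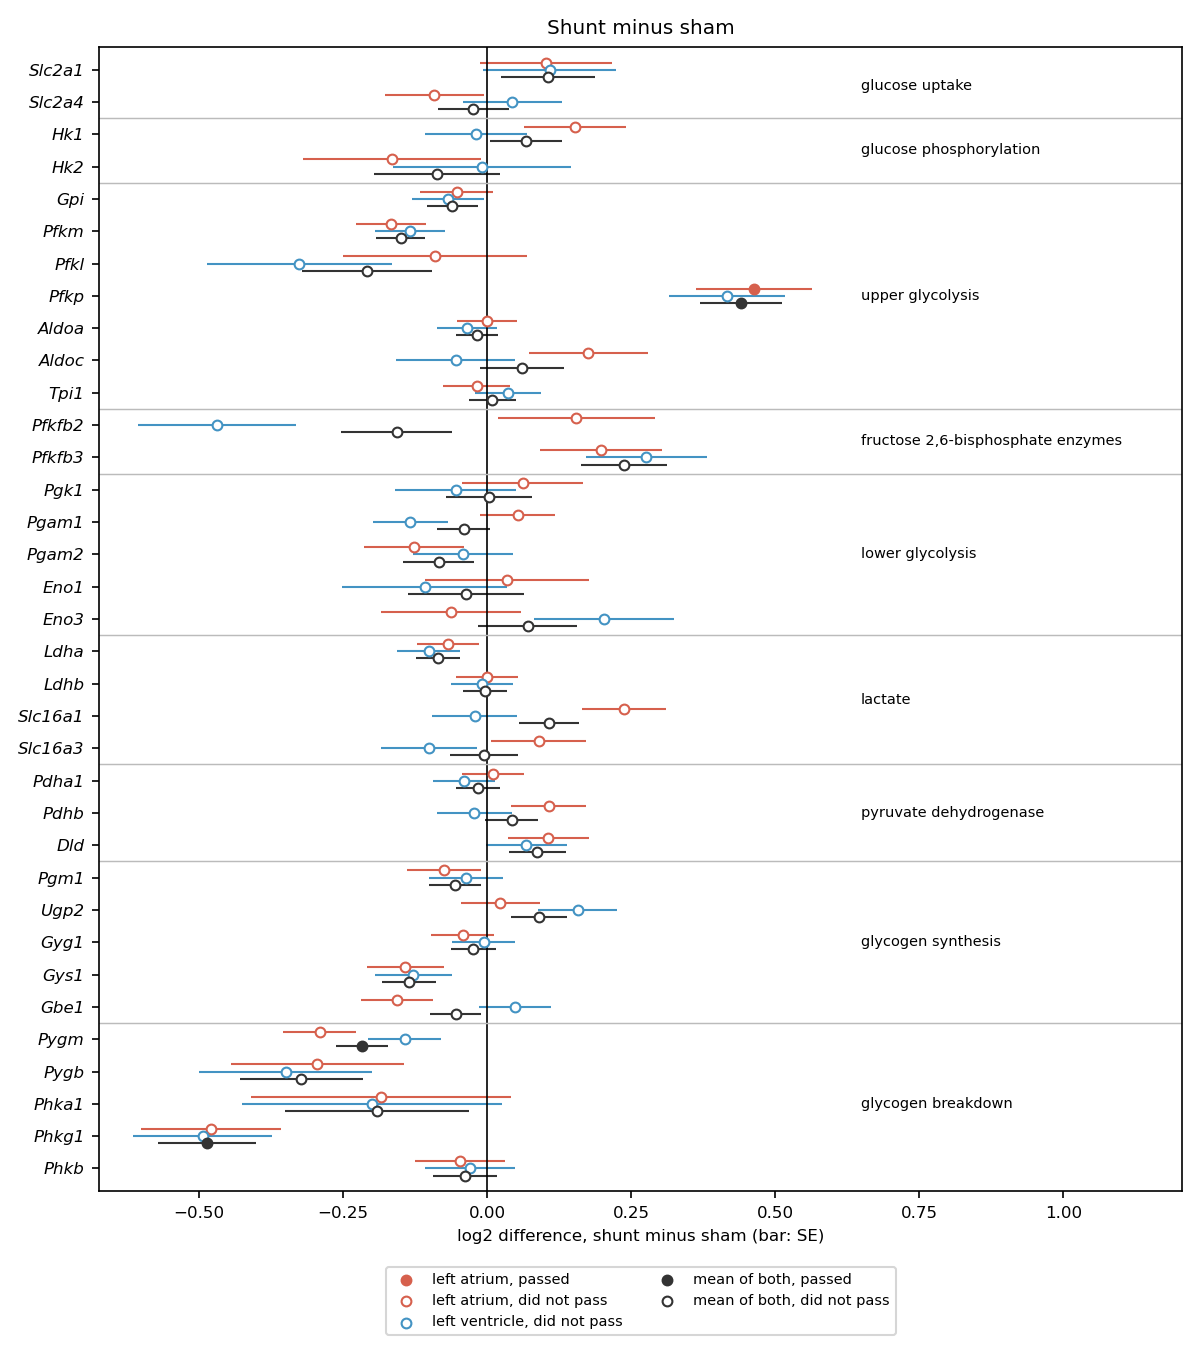
Shunt minus sham for each tested member in left atrium and in left ventricle, and for the mean of both, as the log2 difference with its standard error (n = 3 arrays per group), with filled points for differences that passed. Pfkp is farthest right, at 0.46 in the atrium and 0.42 in the ventricle, and Phkg1 is farthest left, at -0.48 and -0.49.

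Pfkp rose. On atrial shunt arrays it read 8.36, 8.67 and 8.34, against 7.97, 7.97 and 8.04 on atrial sham arrays. Every shunt array was above every sham array, and the difference was 0.46 ± 0.10 (limma adjusted p = 0.0497, 1.38-fold). In the ventricle it read 7.10, 7.30 and 7.10 after shunt and 6.72, 6.89 and 6.64 after sham, also without overlap, but the difference of 0.42 ± 0.10 did not pass (limma adjusted p = 0.111). Over both chambers it rose by 0.44 ± 0.07 (adjusted p = 0.00884). The atrial call lay near the threshold. Among 12 fits with a single array removed, it held in 2, those lacking atrial shunt 3 or ventricular shunt 2. It was lost in the other 10 at adjusted p up to 0.169, and was lost with no filter (0.0642) and with only the groups compared (0.152). The call on the mean effect held in all 12. Non-muscle cells such as fibroblasts also express the platelet form. The mean of the 6 fibroblast genes, all 6 measured, was 10.68 to 11.02 on atrial shunt arrays and 10.90 to 10.95 on atrial sham arrays, and 10.11 to 10.43 on ventricular shunt arrays and 10.18 to 10.27 on ventricular sham arrays. The mean of 6 macrophage genes, all 6 measured, was 6.65 to 7.24 on atrial shunt arrays and 6.82 to 6.94 on atrial sham arrays, and 7.15 to 7.30 on ventricular shunt arrays and 6.92 to 6.99 on ventricular sham arrays. Other lists moved with the shunt. The 4 ventricular myocyte genes averaged 6.20 to 6.65 on atrial shunt arrays and 5.32 to 5.86 on atrial sham arrays, with Myh7 and Myl3 higher in the atrium, and 11.51 to 11.61 on ventricular shunt arrays and 11.18 to 11.33 on ventricular sham arrays. The nerve and Schwann genes averaged 4.67 to 5.16 on atrial shunt arrays and 4.25 to 4.61 on atrial sham arrays, and were also higher on every ventricular shunt array than on any ventricular sham array. Prph, the only one tested, rose on the mean effect. The 4 smooth muscle genes averaged 6.55 to 6.65 on atrial shunt arrays and 6.48 to 6.54 on atrial sham arrays, and 6.61 to 6.69 on ventricular shunt arrays and 6.72 to 6.82 on ventricular sham arrays. In the ventricle the endothelial and mesothelial means also lay higher on every shunt array than on any sham array. On the mean effect Lyz2 and Wt1 rose and Ckm fell. The part of these markers in the results for Pfkp, Pygm and Phkg1 was not tested.

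Of the 5 tested genes of glycogen breakdown, 2 fell on the mean effect, Pygm and Phkg1. Over all genes tested, 2.69% fell and 2.38% rose on that effect. Pygm read 10.73, 10.81 and 10.68 on atrial shunt arrays, against 11.06, 11.02 and 11.02 on atrial sham arrays, a difference of -0.29 ± 0.06 that missed the threshold (limma adjusted p = 0.0502). In the ventricle it read 10.92, 11.01 and 11.09 after shunt and 11.16, 11.18 and 11.11 after sham (-0.14 ± 0.06, adjusted p = 0.327). Shunt arrays lay below sham arrays in both chambers, and the mean effect passed at -0.22 ± 0.04 (limma adjusted p = 0.0229). A second probe set for the gene also passed on the mean effect at -0.33 ± 0.07 (adjusted p = 0.0238), and the other gave -0.15 ± 0.04 (adjusted p = 0.0609). Leaving out 1 array ended the Pygm call on the mean effect in 4 of 12 fits, without atrial sham 1 or 3, ventricular shunt 1 or ventricular sham 2, at adjusted p up to 0.0585, and it was also lost without the 3 shunt arrays of highest hexokinase difference (0.0591), a fit with 1 ventricular shunt array left.

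Phkg1, the kinase subunit that activates phosphorylase, read 6.19, 6.09 and 6.34 on atrial shunt arrays and 6.65, 6.62 and 6.79 on atrial sham arrays. In the ventricle it read 5.16, 5.05 and 5.57 after shunt and 5.86, 5.69 and 5.71 after sham. Shunt and sham arrays did not overlap in either chamber, and the differences of -0.48 ± 0.12 (limma adjusted p = 0.084) and -0.49 ± 0.12 (adjusted p = 0.115) did not pass singly. The mean effect, -0.49 ± 0.09 (adjusted p = 0.0126), passed in all 12 fits without 1 array. The 5 tested breakdown members were all below 0 in both chambers, and they were among 15 of all 35 tested members that were. The share of all genes below 0 in both chambers was not taken. Of the 5, Pygb (-0.32 ± 0.11 for the mean effect, limma adjusted p = 0.107), Phka1 (-0.19 ± 0.16) and Phkb (-0.04 ± 0.06) did not pass.

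**Figure D4:**
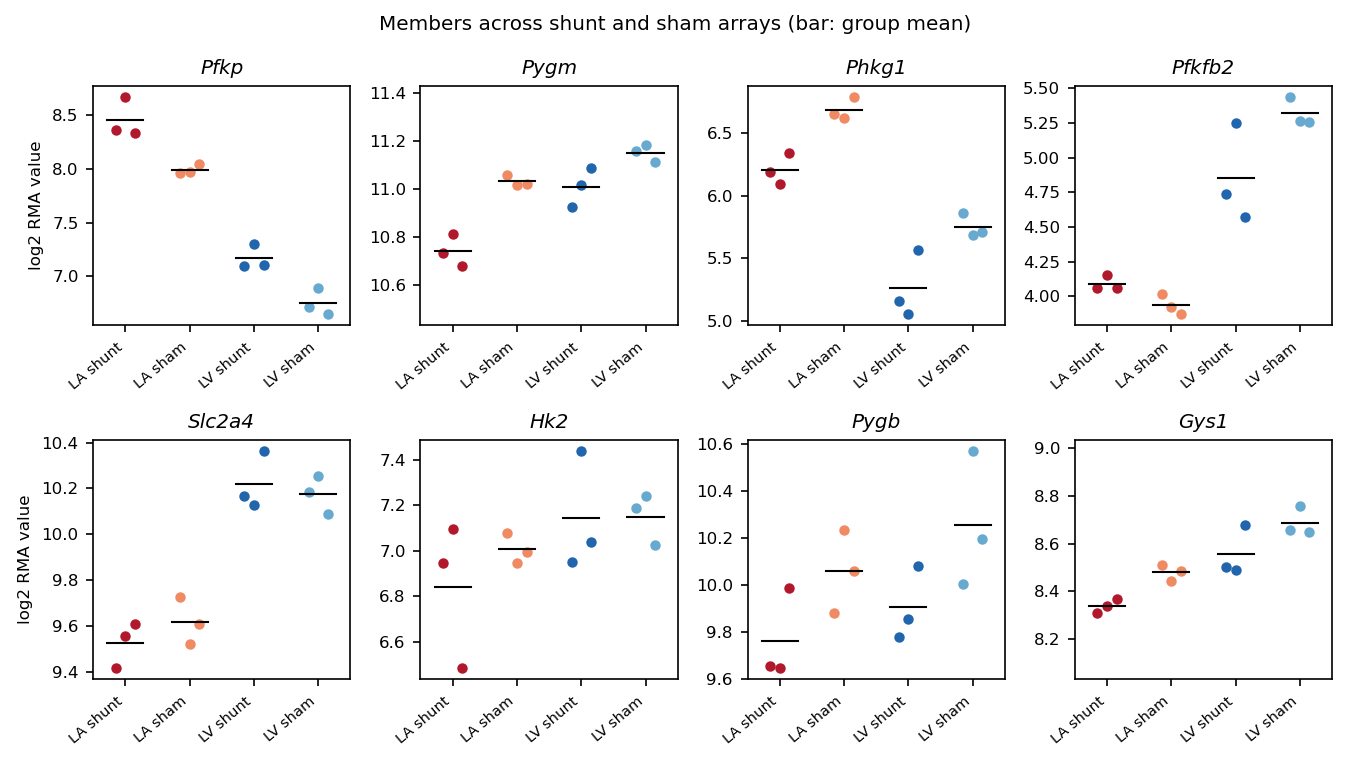
Log2 values on each of the 12 arrays for 8 members, among them those that passed on the mean shunt effect, with group means as bars and each shunt group left of its sham group (LA, left atrium, and LV, left ventricle). Pfkp lies higher, and Pygm and Phkg1 lower, on every shunt array than on any sham array of the same chamber.

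The rest of the pathway did not pass by its representative probe sets. Slc2a1 and Slc2a4 differed by 0.10 ± 0.12 and -0.09 ± 0.09 in the atrium and by 0.11 ± 0.12 and 0.04 ± 0.09 in the ventricle. Hk1 and Hk2 differed by 0.15 ± 0.09 and -0.17 ± 0.15 in the atrium, and Hk2 read 6.48 on atrial shunt array 3, the array whose hexokinase 3′ minus 5′ difference was 1.44, against 6.95 and 7.09 on the other 2. Pfkm was lower without passing, by -0.17 ± 0.06 in the atrium and -0.13 ± 0.06 in the ventricle (mean effect -0.15 ± 0.04, limma adjusted p = 0.0696), and its second probe set passed on the mean effect at -0.29 ± 0.07 (adjusted p = 0.0448). Pfkl differed by -0.09 ± 0.16 in the atrium and -0.33 ± 0.16 in the ventricle.

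Pfkfb2 was the member whose shunt effects lay farthest apart. It read 4.06, 4.16 and 4.06 on atrial shunt arrays and 4.02, 3.92 and 3.87 on atrial sham arrays, and 4.74, 5.25 and 4.57 on ventricular shunt arrays and 5.44, 5.27 and 5.26 on ventricular sham arrays. Every ventricular shunt array lay below every sham array, ventricular shunt array 2 only just. The ventricular difference was -0.47 ± 0.14 (limma adjusted p = 0.168), the atrial one 0.16 ± 0.14, and the difference between them 0.62 ± 0.19 (adjusted p = 0.528). Without ventricular shunt array 2 the ventricular difference was -0.67 ± 0.09 and passed (adjusted p = 0.0251), but another Pfkfb2 probe set differed the other way, by 0.26 ± 0.11 with all arrays (adjusted p = 0.295). Pfkfb3 differed by 0.20 ± 0.11 in the atrium and 0.28 ± 0.11 in the ventricle (mean effect 0.24 ± 0.07, limma adjusted p = 0.0943), but its other probe sets gave mean effects of -0.00 ± 0.06 and 0.03 ± 0.08. In lower glycolysis, Pgam1 differed by 0.05 ± 0.06 and -0.13 ± 0.06, Pgam2 by -0.13 ± 0.09 and -0.04 ± 0.09, and Eno3 by -0.06 ± 0.12 and 0.20 ± 0.12, none passing.

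Slc16a1 read 9.26, 9.30 and 9.07 on atrial shunt arrays and 9.05, 8.95 and 8.92 on atrial sham arrays, without overlap, a difference of 0.24 ± 0.07 that did not pass (limma adjusted p = 0.147). It passed without atrial shunt array 3, at 0.31 ± 0.07 (adjusted p = 0.0437). In the ventricle it differed by -0.02 ± 0.07. Ldha and Ldhb differed by no more than -0.10 ± 0.05 in either chamber, and the tested subunits of pyruvate dehydrogenase by 0.11 ± 0.07 at most. Of the glycogen synthesis genes, Gys1 differed by -0.14 ± 0.07 and -0.13 ± 0.07, Gbe1 by -0.16 ± 0.06 and 0.05 ± 0.06, and Ugp2 by 0.02 ± 0.07 and 0.16 ± 0.07, none passing.

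Of 43 other genes of glucose metabolism that were tested, 2 passed in the atrium, both lower, against 1.4% of all genes, 0.811% lower. In the ventricle 0 passed with limma, against 0.113% of all genes. There 5 of the 43 had an unadjusted p under 0.05, a level at which the share of all genes was not taken. Pdk4, the kinase that holds back glucose oxidation, read 7.68, 7.51 and 7.69 after shunt and 8.54, 8.54 and 8.56 after sham in the atrium (-0.92 ± 0.08). Stbd1, which tethers glycogen to membranes, read 5.43, 5.61 and 5.71 after shunt and 6.19, 6.09 and 6.38 after sham (-0.64 ± 0.09, limma adjusted p = 0.00606). On the mean effect 3 of 43 passed, all lower, Pdk4, Stbd1 and Irs2, near the 5.06% of all genes that passed. Irs2, an adaptor of the insulin receptor, read 5.39, 5.45 and 5.20 on atrial shunt arrays and 6.47, 5.79 and 5.87 on atrial sham arrays, and 5.22, 5.58 and 5.05 on ventricular shunt arrays and 5.92, 5.76 and 6.21 on ventricular sham arrays. Its arrays did not overlap in either chamber, and the mean effect was -0.69 ± 0.13 (limma adjusted p = 0.0176).

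Paired isoforms showed how the balance within a step moved, as the difference between 2 probe sets on the same array set relative to the mean of the ventricular sham arrays. These are descriptions without a test, and only the movement between groups can be read. Pfkm minus Pfkp averaged -2.37 ± 0.14 on atrial shunt arrays, -1.74 ± 0.07 on atrial sham arrays and -0.55 ± 0.11 on ventricular shunt arrays (SD, n = 3), so it lay lower after shunt in both chambers, and lower in the atrium than in the ventricle, without overlap. Slc16a1 minus Slc16a3 shifted by -1.13 between atrium and ventricle in sham rats and by -1.06 in shunt rats. Eno3 minus Eno1 shifted by 0.72 in sham rats, where ventricular arrays spread from -0.27 to 0.49 and atrial ones from 0.57 to 0.97. In shunt rats its shift was 0.32, and the arrays of the chambers overlapped (0.34 to 0.88 in the atrium, -0.01 to 0.48 in the ventricle). Ldha minus Ldhb was 0.28 higher in the atrium of sham rats. Hk2 minus Hk1 was lower after shunt in the atrium by -0.32 without overlap, but 1 of its 3 arrays, atrial shunt array 3, stood at -0.54 and the others at -0.08 and -0.09.

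**Figure D5:**
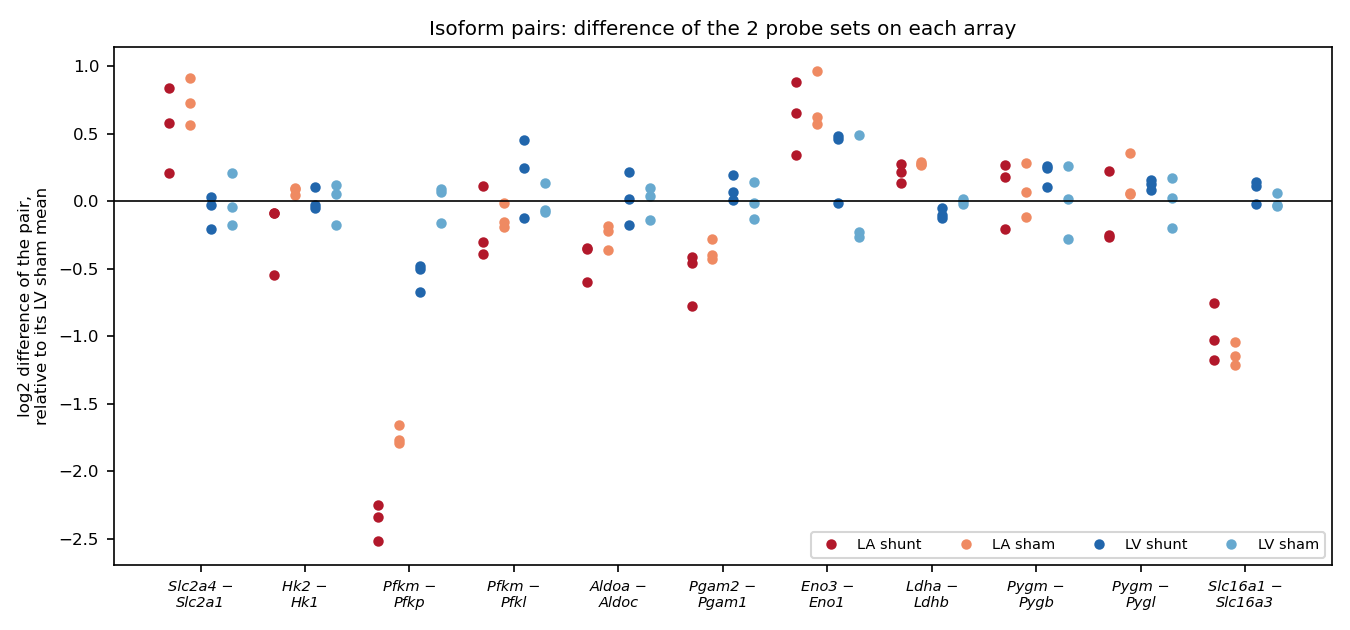
Difference in log2 value between paired isoform probe sets on each array, set relative to the mean of the ventricular sham arrays, by group. Pfkm minus Pfkp averages -2.37 on atrial shunt arrays, -1.74 on atrial sham arrays and -0.55 on ventricular shunt arrays.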

How the data were processed

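RNA from 12 pools was hybridised to one-colour Affymetrix rat arrays, and the deposited values are RMA log2 values per the submitters' processing notes. The RMA version, and which arrays were normalized together, are not given in the sources used here. Of 31099 probe sets, 57 were controls. Gene symbols came from the platform annotation, updated to assembly GRCr8 (20821 of 20826 single-symbol probe sets matched). Probe sets with a mean at or above the 40th percentile (log2 4.01) were tested, 18625 in all. Each was fitted with limma 3.58.1 in R 4.3.3, with 1 mean per group and no block, which left 8 residual degrees of freedom, and p-values were Benjamini-Hochberg adjusted over all of them. Each gene was represented by its probe set of highest mean, giving 10605 genes. Members that passed were named, and otherwise the 2 of smallest p of each step. The fit was tested on simulated data, drawn as independent arrays with the same spread in all groups. That test does not cover the larger deviations of the shunt arrays or arrays that correlate. P-values measure the spread between pools, and 3 arrays per group limit the precision. The members and lists were chosen with earlier results of these data known. Alternatives covered the filter, further normalization, the groups fitted, the prior, blocks, probe set averaging and each array left out.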

Additional observations from a re-analysis of the deposited data

How the results depend on the processing

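Members passing in the atrial shunt comparison, 1 as reported, numbered 0 with no filter and with only the groups compared, and 2 with a 60th percentile filter, with cyclic loess, with a trended and robust prior and with probe sets averaged per gene. Pfkp lost its atrial call with no filter and with only the groups compared. On the mean effect, 3 as reported, the trended and robust prior gave 5. With each array left out in turn, the member counts were 0 to 2 in the atrium, 0 to 1 in the ventricle, 2 to 4 for the mean effect, 0 for the difference of effects, 21 to 29 for the chambers in sham rats and 19 to 26 in shunt rats. Probe sets passing out of all tested, 243 in the atrium, were 43 with only the groups compared, 426 with the trended and robust prior and 66 to 469 with 1 array left out. In the ventricle, 20 as reported, they were 82 with the 60th percentile filter, 38 with further quantile normalization, 10 with only the groups compared, 96 with the trended prior and 0 to 118 with 1 array left out. For the mean effect, 894, they were 309 to 1190 with 1 array left out. For the difference of effects, 0, they were 1 with the trended prior, 2 with the mean of probe sets and 0 to 19 with 1 array left out. For the chambers, 8782 in sham rats and 7801 in shunt rats, they were 5505 and 4990 with the mean of probe sets, which tests fewer features, and 7340 to 9346 and 6666 to 7957 with 1 array left out. The share of higher calls in the ventricular shunt comparison was 42.1% with further quantile normalization and 55% as reported. Between chambers, 53.4% of passing probe sets were higher in the atrium in sham rats and 53.6% in shunt rats. With further quantile normalization these shares were 46.4% and 47.6%, with no filter 48.6% and 50.7%, and with cyclic loess 52.3% and 53.1%. Among passing members they were 22.2% and 23.1% as reported, and 17.9% and 16.7% with further quantile normalization. Added after seeing the data, the hexokinase control difference as a covariate gave 3 members in the atrium, with 758, 215 and 1791 probe sets in the atrium, the ventricle and the mean effect and 1 for the difference. That covariate is itself built from Hk1 control probe sets. A fit without the 3 shunt arrays of highest hexokinase difference, also added after seeing the data, gave 3 members in the atrium, 1 in the ventricle (Phkg1) and 17 for the chambers in shunt rats, with 642, 45 and 15 probe sets in the atrium, the ventricle and the difference. It leaves 1 ventricular shunt array, assumed to vary like the other groups, and 2 atrial ones, so its ventricular and chamber values rest on that array. The cause of these moves was not tested. The chamber calls kept in every setting run were 19 of 27 in sham rats and 14 of 26 in shunt rats. No called member changed sign, while members that did not pass changed sign in some setting, 12 in the atrium and 13 in the ventricle. The Slc2a4 minus Slc2a1 shift between the chambers in sham rats, 0.74, was 0.96 with the mean of probe sets.

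Replicate numbers recur in all groups, and the sources do not say whether they mark shared animals. Between chambers, the deviations of same-numbered arrays correlated at -0.24, 0.44 and 0.44 after shunt and at 0.23, 0.26 and 0.07 after sham. Between shunt and sham in a chamber the correlations were -0.10 to 0.01. The numbers were not taken to pair the samples, so the main fit treats the chambers as independent. Whether they shared rats was not tested. With the replicate block, members passing were 1 in the atrium, 0 in the ventricle, 4 for the mean effect, 0 for the difference, and 27 and 25 for the chambers in sham and shunt rats. With the replicate block within operation they were 1, 0, 3, 0, 29 and 26. All probe sets passing were then 10 in the ventricle, 526 for the mean effect, against 894 without a block, and 1 for the difference.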
